A study of Mus musculus with 9 samples.

Results

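Calb1, Calb2, Cux2, Ndst4, Sox5, Astn2, Dcn, Grp, Gpc3 and Ndnf are used as markers of depth and of long-axis position among hippocampal CA1 pyramidal neurons. These 10 genes were taken by symbol from a table of 31052 genes, and all 10 were present in it. Pyramidal cells of wild-type (WT) mice had been watched by two-photon imaging during navigation and sorted by their activity into place cells, which fire at particular places, and silent cells. Nuclei of the chosen cells were marked with light and collected, and RNA of these nuclei was sequenced in 5 place and 4 silent libraries. Both groups are labelled as hippocampal pyramidal cells of WT mice, with no drug, allele or age named and no hippocampal field given. How many nuclei went into a library is not stated, and the titles can be read as separate mice or as samples of 1 mouse, so every p-value measures the spread between these libraries, which may be technical.

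CA1 pyramidal cells form a compact sheet with a superficial part near the stratum radiatum and a deep part near the stratum oriens, and cells at different depths differ in inputs, targets and birth date. A second gradient runs along the long axis of the hippocampus from its dorsal to its ventral pole. Calb1, which encodes the calcium buffer calbindin, is the classic mark of superficial cells and is also strong in dentate granule cells. Ndst4, which encodes an enzyme that modifies heparan sulfate chains, is used as a mark of deep cells, and Dcn, which encodes the secreted proteoglycan decorin, is known from the middle and ventral part of CA1 and from fibroblasts.

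Levels are given in RPM, reads per 1000000 reads of a library's scaled depth, with reads recovered from the authors' normalized signal. Library depth ran from 14060551 to 22362510 reads. A gene with no reads could still have been present at up to 0.132 to 0.213 RPM, which is what 3 reads amount to in the deepest and shallowest library. This limit covers counting error only, and 42% of tested genes had no reads in at least 1 library. The libraries were heterogeneous, with correlations of log2 values between pairs from 0.548 to 0.767, and silent replicate 1, silent replicate 4 and place replicate 3 stood farthest out on the first 3 principal components. All 9 CA1 pyramidal markers on the list used here were measured, with Wfs1 present in every library at 30.8 RPM in place replicate 3 and 102 to 205 RPM in the rest. In pooled RNA, fewer cells of a type and less RNA per cell cannot be told apart.

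The 10 genes fell into 3 kinds by how many libraries held their reads. Calb1 and Ndst4 had reads in all 9 libraries, and Cux2, Sox5 and Astn2 in 8. Dcn had reads in 5 libraries and Calb2 in 3, while Grp, Gpc3 and Ndnf each had reads in 1. Of the 10, a library held reads of 4 in silent replicate 4 and of 7 in place replicates 2 and 5 and silent replicate 2. The plot of levels by group shows these 3 kinds side by side.

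**Figure D1:**
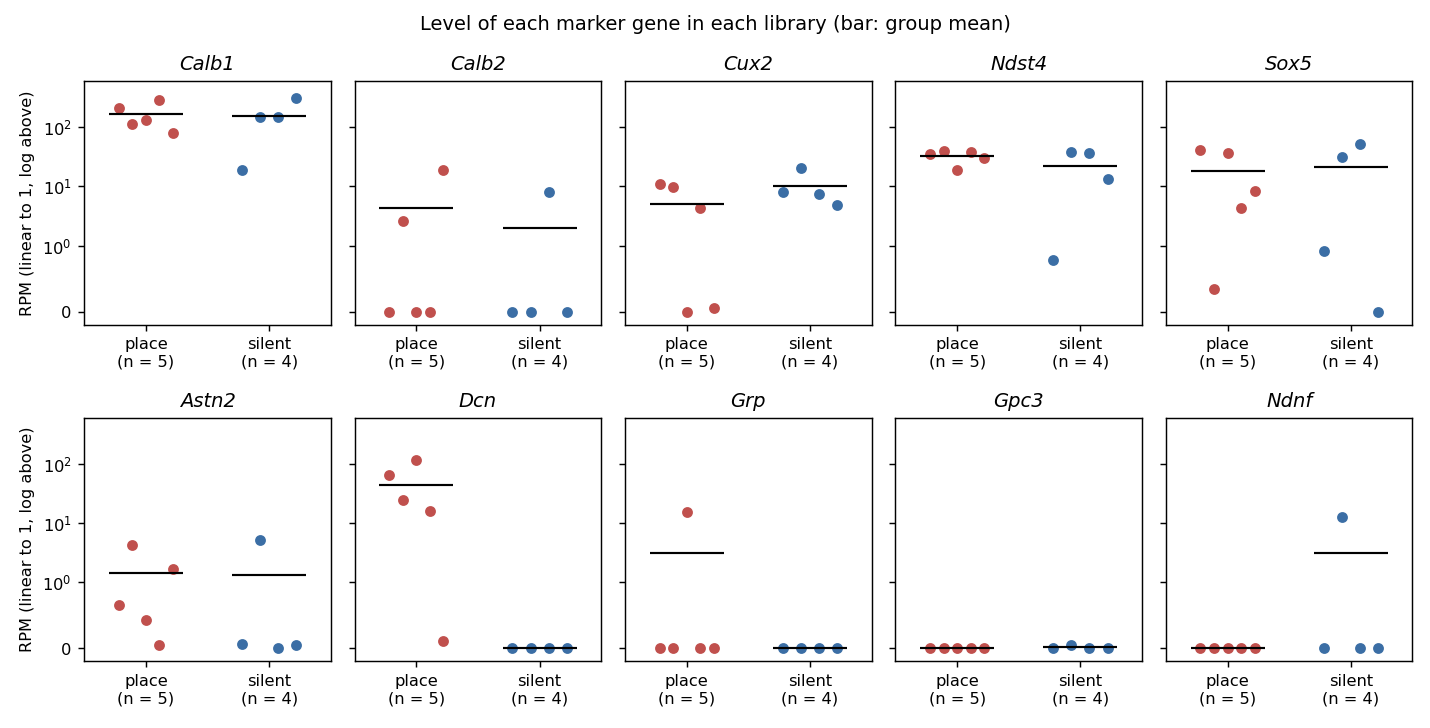
Level of each of the 10 markers in RPM (vertical axis, linear to 1 and logarithmic above) in the 5 place and 4 silent libraries (points), with the group mean as a bar. Calb1 and Ndst4 are seen in every library, Dcn only in place libraries, and Grp, Gpc3 and Ndnf in 1 library each.

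The comparison of place with silent libraries asks whether cells that differ in activity also differ in these position markers. Genes were tested with limma on log2(scaled signal + 1) when their deposited signal was at least 10 in at least 4 libraries, with p-values adjusted by the Benjamini-Hochberg method over all 15232 tested genes. Of the markers 6 passed this filter: Calb1, Ndst4, Cux2, Sox5, Astn2 and Dcn. None of the 6 had a limma adjusted p under 0.05, where the share of all tested genes called was 0%. At that adjusted threshold voom on recovered reads called 0 of the 6 as well. By an unadjusted p under 0.05 limma singled out 1 of the 6, Dcn, against 5.03% of all tested genes. Voom also singled out 1 of the 6 by an unadjusted p, again Dcn. The groups did not overlap for 1 of the 6, Dcn, with place higher (1.29% of all tested genes), and for none with silent higher (0.597%). Dcn passed the filter only through its place libraries, so that it had to differ.

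Calb1 was abundant and alike in both groups at the level of the mean. It stood at 209.5, 115, 135, 282 and 78.8 RPM in place replicates 1 to 5 and at 18.9, 148, 146 and 311 RPM in silent replicates 1 to 4. The silent libraries held both the lowest and the highest value, so the place range lay within the silent one. The means were 164 ± 81.4 RPM (SD, n = 5) in place and 156 ± 120 RPM (SD, n = 4) in silent libraries. The log2 fold, place minus silent, was 0.48 ± 0.68 (SE, limma adjusted p = 0.910), beside a median of 0.20 over all tested genes. Its sign was not firm. Without silent replicate 1 the silent mean was 201 ± 94.7 RPM (SD, n = 3) and the log2 fold was -0.34 (limma adjusted p = 0.929). With all libraries and the number of genes detected as a covariate the fold was -0.0696. Without silent 1, silent 4 and place 3 the fold was 0.0523.

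Calb1 is also a granule cell gene, and granule cell markers were measured beside it. The 8 genes of that list summed to 93.7 to 668 RPM in place and 208 to 302 RPM in silent libraries. Prox1, a transcription factor of granule cells, was highest in place replicate 3, at 115 RPM, where Calb1 was at 135 RPM. It was next highest in silent replicate 1, at 67.3 RPM, where Calb1 was lowest, at 18.9 RPM. In place replicates 1 and 4 Prox1 was at 3.98 and 7.86 RPM, and Calb1 at 209.5 and 282 RPM. Silent replicate 4, the library with the most Calb1 at 311 RPM, had Prox1 at 28.0 RPM and a list sum of 208 RPM. Stxbp6 of the granule cell list was highest there, at 54.6 RPM, and had no reads in place replicates 1 and 4. Dsp and Pdzd2 of that list had no reads in silent replicate 4. The part of granule cell RNA in the Calb1 level was not tested.

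Ndst4 belongs to the family of N-deacetylase/N-sulfotransferases, which begin the sulfation of heparan sulfate. It stood at 34.8, 40.2, 19.0, 37.6 and 30.8 RPM in place replicates 1 to 5 and at 0.782, 38.8, 36.7 and 13.4 RPM in silent replicates 1 to 4. The place libraries were close to each other, while the silent ones split into a pair at the upper end of the place range and a pair below every place library. Silent replicate 1 was represented by 11 reads. The means were 32.5 ± 8.29 RPM (SD, n = 5) and 22.4 ± 18.5 RPM (SD, n = 4), and the log2 fold was 1.5 ± 1.10 (SE, limma adjusted p = 0.862). Without silent replicate 1 the silent mean was 29.6 ± 14.1 RPM (SD, n = 3) and the log2 fold was 0.23 (limma adjusted p = 0.960).

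Silent replicate 1 was lowest of the 9 libraries for Calb1 and Ndst4 alike, so the 2 markers of opposite depth were low together there. It was also the library with the fewest reads and the fewest genes detected, 14176 against 15515 to 20990 in the others, and with genes detected as a covariate both folds were just below 0. The part of this in the low values was not tested. Its 9 CA1 markers summed to 1234 RPM, in a series range of 579 to 1303. Silent replicate 4 differed in another way, with the highest Calb1 and the second lowest Ndst4. These 2 libraries are the corners of the plot of Calb1 against Ndst4.

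**Figure D2:**
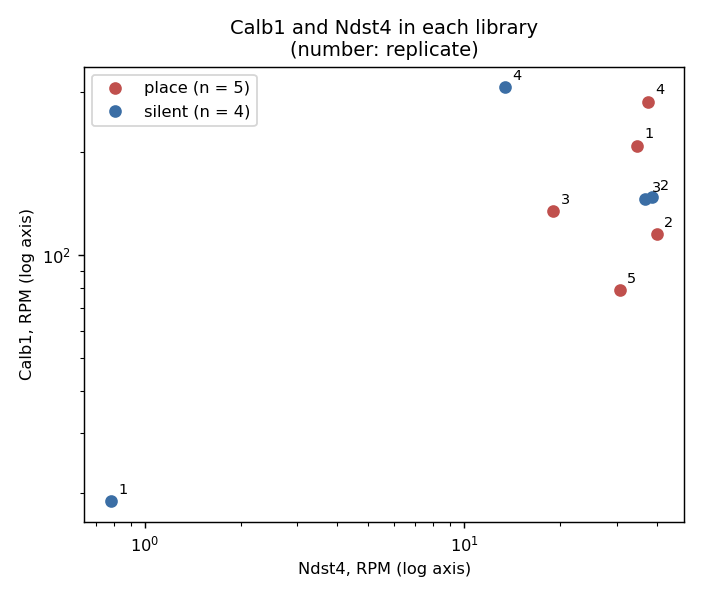
Calb1 (vertical) against Ndst4 (horizontal), both in RPM on log axes, for each of the 9 libraries, numbered by replicate within its group. Silent replicate 1 lies at the lower left (0.782 and 18.9 RPM) and silent replicate 4 at the top (13.4 and 311 RPM), and the other 7 libraries lie at 19.0 to 40.2 RPM of Ndst4.

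The balance of the superficial and the deep marker was compared as log2 of the ratio of Calb1 to Ndst4 within each library, with 1 RPM added to each, a measure in which the depth of a library nearly cancels. It was 2.56, 1.5, 2.76, 2.88 and 1.33 in place replicates 1 to 5 and 3.48, 1.90, 1.96 and 4.43 in silent replicates 1 to 4. The groups overlapped, and the 2 highest ratios were silent. The means were 2.20 ± 0.73 (SD, n = 5) and 2.94 ± 1.23 (SD, n = 4), a difference of -0.74, place minus silent (exact permutation test over every split, two-sided, p = 0.317). The smallest p this design allows is 0.0159. With 10 RPM added in place of 1 the difference was -0.22, and with 0.1 RPM it was -0.98. Without silent replicate 4 the difference was -0.24 and without silent 1, silent 4 and place 3 it was 0.13, so its size and sign rested on those libraries.

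Cux2 and Sox5 encode transcription factors, in the neocortex known from upper-layer and from deep-layer neurons respectively. Cux2 stood at 11, 9.67, 0, 4.27 and 0.0534 RPM in place replicates 1 to 5 and at 8.03, 20.1, 7.43 and 4.81 RPM in silent replicates 1 to 4. It was present in every silent library, without reads in place replicate 3 and at a single read in place replicate 5, and the other 3 place libraries fell among the silent ones or, for 1 of them, just under. The means were 5.0 ± 5.19 RPM (SD, n = 5) in place and 10.1 ± 6.83 RPM (SD, n = 4) in silent libraries. The log2 fold was -3.14 ± 2.25 (SE, limma adjusted p = 0.862), the only negative one among the 6 tested markers. It moved to -1.83 without place replicate 3, to -1.40 on log2(RPM + 1) and to -4.98 with the number of genes detected as a covariate.

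Sox5 varied widely across libraries within both groups. It stood at 41.2, 0.337, 37.3, 4.41 and 8.33 RPM in place replicates 1 to 5 and at 0.924, 31.1, 52.9 and 0 RPM in silent replicates 1 to 4. Both groups held 2 libraries above 30 RPM and at least 1 below 1 RPM. The mean was slightly lower in place, at 18.3 ± 19.4 RPM (SD, n = 5) against 21.2 ± 25.6 RPM (SD, n = 4), whereas the log2 fold was positive, 1.59 ± 2.44 (SE, limma adjusted p = 0.918). Without silent replicate 4, the library with no reads, the log2 fold was -0.67, and without silent 1, silent 4 and place 3 it was -3.07. No direction is given for Sox5.

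Astn2, which encodes an astrotactin, a membrane protein of migrating and adult neurons, was low throughout. It stood at 0.663, 4.33, 0.425, 0.0454 and 1.66 RPM in place replicates 1 to 5 and at 0.0711, 5.25, 0 and 0.0441 RPM in silent replicates 1 to 4. In silent replicate 2 it was represented by 104 reads, and in the other silent libraries by at most 1. The means were 1.42 ± 1.73 RPM (SD, n = 5) and 1.34 ± 2.60 RPM (SD, n = 4), and the log2 fold was 2.03 ± 1.99 (SE, limma adjusted p = 0.864). Without silent replicate 2 the silent mean was 0.0384 RPM and the log2 fold was 3.68, and without silent replicate 3 the fold was 1.09. Its family relative Astn1 was found in all 9 libraries, at 153 ± 28.0 RPM (SD, n = 5) in place and 148 ± 129 RPM (SD, n = 4) in silent libraries.

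**Figure D3:**
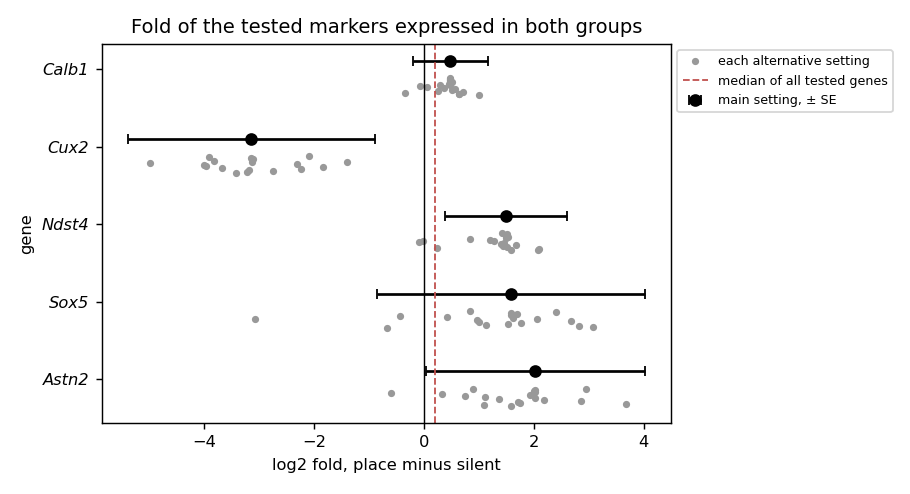
Log2 fold, place minus silent, of the 5 tested markers with reads in both groups: the main setting with its standard error (black) and each alternative setting (grey), beside the median of all tested genes (dashed line, 0.20). Points of Calb1, Ndst4, Sox5 and Astn2 lie on both sides of 0, and those of Cux2 all lie below 0.

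Dcn was the marker with the most uneven layout between the groups. It stood at 64.5, 24.7, 116, 15.9 and 0.107 RPM in place replicates 1 to 5 and was without reads in silent replicates 1 to 4. The first 4 place libraries held from 349 to 2185 reads, while place replicate 5 held 2 reads, fewer than the 3 that a count of 0 allows. Presence in all place libraries therefore rests on 2 reads in 1 of them, and the detected signal on 4 libraries. The mean of the place libraries was 44.2 ± 46.6 RPM (SD, n = 5). The mean limit of the silent libraries was 0.170 RPM, reckoned at 3 reads per library. The place mean was at least 260.3-fold higher than that limit, which covers counting error only. Without place replicate 5 the place mean was 55.3 ± 45.7 RPM (SD, n = 4). Without place replicate 3 it was 26.3 ± 27.4 RPM (SD, n = 4), at least 154.78-fold higher than that limit.

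In limma Dcn had an unadjusted p of 0.00148 and an adjusted p of 0.651, so it did not pass over all genes. The adjusted p lay between 0.305 and 0.959 over 19 alternatives, and the unadjusted p between 0.000157 and 0.0206. Reads in all 5 place and no silent library were found for 34 of the 15232 tested genes (0.223%), and any place-higher layout without overlap for 1.29%. For Dcn both layouts rest on the 2 reads in place replicate 5. Over all 9 libraries the SD of its log2 signal was larger than that of 99.4% of tested genes. Because Dcn passed the filter only through place libraries, none of these values is independent support for a difference.

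Decorin is made by fibroblasts as well as by neurons, so markers of fibroblasts and vascular leptomeningeal cells were measured beside it. The 8 measured genes of that list summed to 416, 203, 2419, 63.0 and 39.7 RPM in place replicates 1 to 5 and to 262, 37.1, 44.9 and 290.5 RPM in silent replicates 1 to 4. Col1a2, a collagen chain of fibroblasts, was at 1260 RPM in place replicate 3 and 39.3 in place replicate 2. It had no reads in place replicate 1, where Dcn was at 64.5 RPM, and was at 72.2 RPM in silent replicate 4, where Dcn had none. Other genes of the list did have reads in place replicate 1. Ptgds, a prostaglandin synthase, was at 386 RPM and Foxc1, a transcription factor, at 26.5 RPM. The list's sum there was the second highest of the 9 libraries, but most of it was Ptgds. The collagen genes Col1a1 and Col3a1 were at 1.06 RPM and without reads in that library. The part of fibroblast RNA in the Dcn level was not tested.

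Oligodendrocyte markers were uneven over the same libraries. None of the 10 tested passed limma's adjusted threshold. All 10 had positive folds, against 59.1% of all tested genes. By an unadjusted limma p under 0.05, 5 were higher in place, against 3.76% of all tested genes. Opalin, 1 of the 5, passed the filter only through place libraries, so that it had to differ. It had 1 read in silent replicate 1 and none in the other silent libraries. The 11 genes summed to 1509, 2006, 3546, 312 and 198 RPM in place replicates 1 to 5 and to 118 to 585 RPM in silent libraries. The 3 libraries with the highest sums were the 3 with the most Dcn, although their order differed, and place replicate 4 had Dcn with a sum in the silent range. The part of oligodendrocyte RNA in the Dcn difference was not tested either. The plot of Dcn beside the summed markers shows both lists. Astrocyte markers, 8 genes, summed to 2614 RPM in place replicate 3 and to 171 to 515 RPM in the others.

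**Figure D4:**
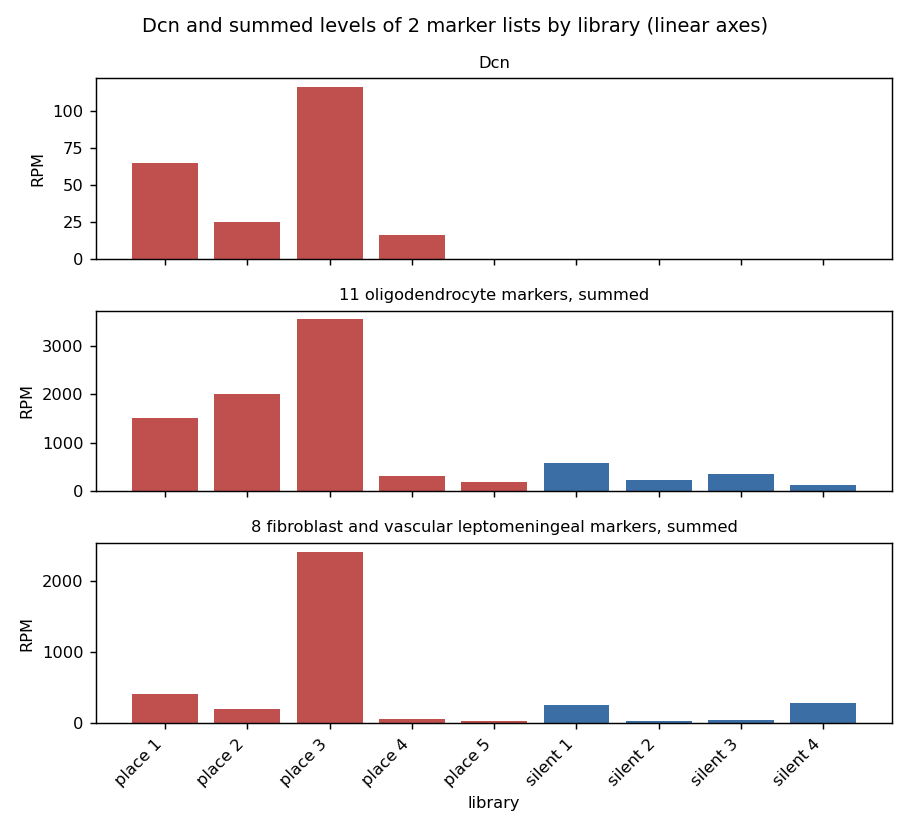
Level of Dcn and summed levels of 11 oligodendrocyte and 8 fibroblast and vascular leptomeningeal markers (bars, RPM, linear axes from 0) in each of the 9 libraries, place libraries in red and silent ones in blue. Place replicate 3 is highest in all 3 panels, and silent replicate 4 has 290.5 RPM of fibroblast markers and no Dcn.

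The other members of decorin's family, the small leucine-rich proteoglycans, were sparse. Of 9 measured, 1 passed the filter, Epyc, with reads in 4 place and 4 silent libraries, at 3.72 ± 3.64 RPM (SD, n = 5) in place and 6.94 ± 3.62 RPM (SD, n = 4) in silent libraries (limma adjusted p = 0.863). Ogn averaged 21.7 ± 45.7 RPM (SD, n = 5) in place libraries, with reads in 2 of 5, and had none in silent ones. Bgn, the nearest relative of Dcn, had reads in 2 place libraries and 1 silent library. Lum had reads in 3 place libraries and 1 silent library, and Kera in 3 place libraries only.

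Grp, Gpc3, Calb2 and Ndnf were under the filter and have no test. Grp, which encodes the bombesin-like gastrin-releasing peptide, had 291 reads in place replicate 3, that is 15.4 RPM, and none in the other 8 libraries. That library was also the one with the lowest Wfs1 and the highest Prox1, oligodendrocyte, astrocyte and fibroblast marker levels. Nmb, the related peptide, was seen in 5 place and 3 silent libraries, at 20.2 ± 14.5 RPM (SD, n = 5) and 23.1 ± 27.1 RPM (SD, n = 4). Gpc3, a glypican, gave 1 read in all, in silent replicate 2, which is below what a count of 0 allows, so its presence was not detectable at this depth. Its relatives Gpc1, at 18.9 ± 18.8 RPM (SD, n = 5) and 16.4 ± 10.97 RPM (SD, n = 4), and Gpc4, at 21.97 ± 17.5 RPM and 21.96 ± 15.2 RPM, were found in both groups.

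Calb2 encodes calretinin, a relative of calbindin best known from interneurons and from mossy cells of the hilus. It was at 2.59 RPM in place replicate 2, 19.2 RPM in place replicate 5 and 7.98 RPM in silent replicate 3, and had no reads in the other 6 libraries. Silent replicate 3 also held Vip, a peptide of interneurons that often make calretinin, at 640 RPM, while Vip was at 8.44 RPM in place replicate 2 and without reads in the other 7. Of the GABA-synthesis genes, Gad2 was highest in place replicate 5 and silent replicate 3, at 98.6 and 64.9 RPM. Gad1 was highest elsewhere, at 184 RPM in place replicate 3 and 140 RPM in place replicate 2, and stood at 39.9 and 42.2 RPM in place replicate 5 and silent replicate 3. The 5 measured genes of the mossy cell list summed to 193 RPM in place replicate 2, 103 RPM in place replicate 5 and 109 RPM in silent replicate 3, in a series range of 91.5 to 193. Within that list, Csf2rb2 was at 47.8 RPM in place replicate 2 and 4.70 RPM in place replicate 5 and without reads elsewhere, whereas Calcrl had no reads in those libraries and was highest in silent replicate 3, at 42.3 RPM. The 15 interneuron markers summed to 104 to 502 RPM in place and 110 to 1006 RPM in silent libraries, and their part in the Calb2 level was not tested. Of that list Npy, a peptide gene of many interneurons, shared the layout of Dcn, with 0.227 to 20.0 RPM in the place libraries and no reads in the silent ones, and it too passed the filter only through place libraries (limma unadjusted p = 0.00112, adjusted p = 0.651).

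Ndnf, a secreted factor that marks neurogliaform interneurons in the cortex, had 249 reads in silent replicate 2, that is 12.6 RPM, and none elsewhere. Reln, which encodes reelin and is made by such interneurons, was highest in the same library, at 142 RPM, against at most 14.2 RPM in the other 8. Sst, the somatostatin gene, and Lhx6 of the interneuron list were also highest there, at 109 and 6.61 RPM. Npy and Vip of that list had no reads there. Lamp5, at 35.7 RPM there, was highest in place replicate 4, at 48.9 RPM. Adarb2, at 16.2 RPM there, was highest in silent replicate 3, at 105 RPM. Gad2 and Gad1 were at 23.0 and 60.7 RPM there, against up to 98.6 and 184 RPM in other libraries. The 15 interneuron markers summed to 474 RPM in silent replicate 2, and their part in the Ndnf level was not tested. Slc32a1, the vesicular GABA transporter that defines inhibitory neurons, was at 2.07 RPM in silent replicate 2, at 8.66 RPM in place replicate 2, at 12.7 RPM in silent replicate 3 and without reads in the remaining 6. Presence in a single library allows no comparison of groups for Grp, Gpc3 or Ndnf.

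**Figure D5:**
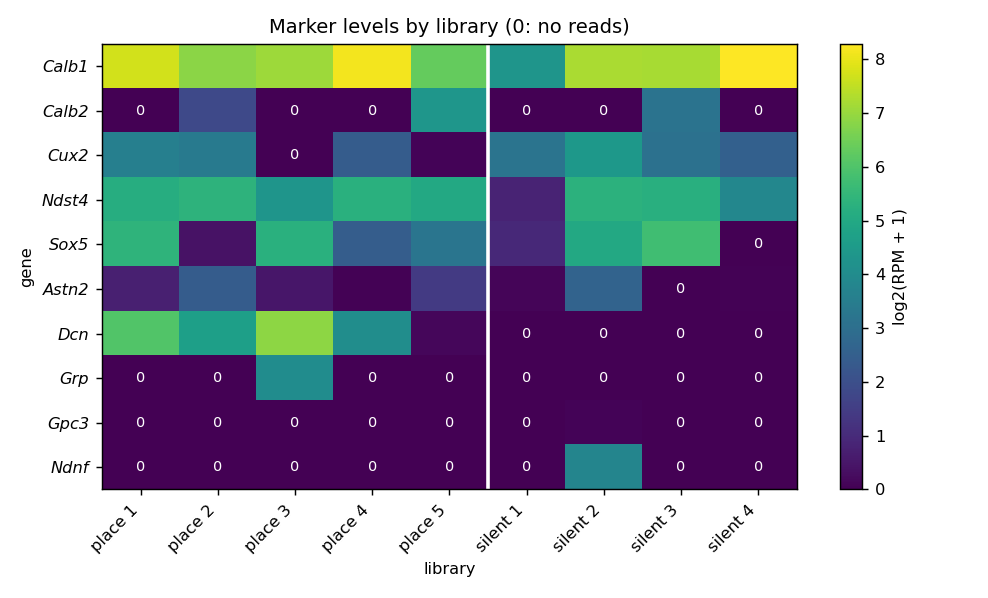
Level of each marker (rows) in each library (columns) as log2(RPM + 1), with 0 written where there were no reads and a white line between place and silent libraries. Dcn is seen to the left of the line only, Grp in place replicate 3, Ndnf in silent replicate 2, and Calb2 in place replicates 2 and 5 and silent replicate 3.

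Genes related to the markers were compared from lists of 58 genes, of which 51 were in the table and 36 passed the filter. None had a limma adjusted p under 0.05, and by an unadjusted p under 0.05 limma gave 1 gene higher and 1 lower in place, against 3.76% and 1.27% of all tested genes. Folds were positive for 23 of the 36 and negative for 13, with a median of 0.35, beside 59.1% positive and a median of 0.20 over all tested genes. The share was near that of the whole table.

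The lower gene was Ndst3, the closest relative of Ndst4. Its mean was 99.5 ± 27.9 RPM (SD, n = 5) in the place and 177 ± 56.2 RPM (SD, n = 4) in the silent group, with overlapping groups (log2 fold -0.81 ± 0.33 SE, limma adjusted p = 0.862). Ndst1 and Ndst2 had positive folds that did not pass either, at 62.6 ± 26.8 and 49.5 ± 30.6 RPM for Ndst1 and 28.1 ± 19.7 and 22.5 ± 31.0 RPM for Ndst2. Of 12 tested genes that build or sulfate heparan sulfate, 8 had positive and 4 negative folds, with a median of 0.27. Among 7 tested glypicans and syndecans, the core proteins that carry these chains, 5 were positive and 2 negative.

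The higher gene was Nnat, which encodes the small membrane protein neuronatin, on the list of other genes that vary with depth or along the long axis of CA1. It stood at 16.9 ± 8.94 RPM (SD, n = 5), with reads in all place libraries, and at 3.94 ± 5.30 RPM (SD, n = 4), with reads in 2 silent ones (limma adjusted p = 0.862). Of the 12 tested genes of that list 6 had positive and 6 negative folds, with a median of 0.05. Zbtb20, a transcription factor of hippocampal projection neurons, stood at 2535 ± 526 and 2029 ± 152 RPM (limma adjusted p = 0.862). Wfs1 stood at 133 ± 66.4 and 148 ± 31.0 RPM (limma adjusted p = 0.898). Cux1, the relative of Cux2, was higher in the mean in place libraries, at 52.7 ± 25.0 against 24.8 ± 19.1 RPM (log2 fold 2.27 ± 1.26 SE, limma adjusted p = 0.862), whereas Cux2 was lower.

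Likeness of pattern was measured as Pearson's r of scaled log2 signal over the 9 libraries against 12015 other tested genes with standard names, as a description only, since the libraries share depth and number of genes detected and the highest of so many values is large in any case. Calb1 was most like Impdh2 (r = 0.975) and Gng2 (r = 0.960). Ndst4 was most like Hsdl1 (0.992) and Chrnb2 (0.992), both of which had no reads in silent replicate 1. Cux2 was most like Pramel12 (0.979) and Pheta1 (0.969), Sox5 most like Cep85l (0.969) and Aqp11 (0.961), and Astn2 most like Arhgap17 (0.938) and Cep112 (0.937). Dcn was most like Cmtm5 (0.988) and Cd44 (0.986). Cmtm5 stood at 30.6, 8.94, 91.6 and 5.59 RPM in place replicates 1 to 4 and Cd44 at 15.9, 4.11, 17.6 and 2.32 RPM, and neither had reads in place replicate 5 or in the silent libraries.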

How the data were processed

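The authors deposited a table of normalized read signal with 9 libraries in rows. STAR, HTSeq and the GRCm39 build are named in the submitters' processing notes; no source used here gives the annotation, strand setting or normalization, and no coordinates are printed. Each gene's signal proved to be whole reads times 1 number per gene, a trimmed-mean (TMM) factor against Ezh2, so no library had been scaled for depth. Reads came out whole, within 0.05, for 97.4% of genes and 99.3% of those tested. Because the factor differs by gene, the minimum signal of 10 stands for different numbers of reads. Libraries were scaled here by TMM (30% and 5% trim). Place was compared with silent by limma 3.58.1 (R 4.3.3) on log2(scaled signal + 1) with an intensity trend and no covariate. The test and the recovery were tested on simulated data. A count model was not used. Levels are mean ± SD of RPM. The members and lists were chosen with earlier results of these data known. All members are named, with the 2 genes most like each tested member and relatives of the same family. Up to 4 genes of each list by smallest p are named as well. Wfs1, Prox1, Gad1, Gad2 and Slc32a1 are named as context. Vip, Csf2rb2, Calcrl, Reln, Sst, Lhx6, Lamp5, Adarb2 and Foxc1 fall outside these rules and were chosen after their values were seen. Alternatives covered pseudocount, filter, scaling, voom, a covariate and left-out libraries.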

Additional observations from a re-analysis of the deposited data

Results flagged for a closer look

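In 6 of 18 groups of libraries looked at, 1 library lay far from the others of its group by Dixon's ratio of gap to range, which chance does in about 1 in 20 groups with normal errors; a gene seen in a single library is always picked out. Calb2 was at 19.2 RPM in place replicate 5, next highest 2.59 RPM, and at 7.98 RPM in silent replicate 3, where the other silent libraries had no reads. Astn2 was at 5.25 RPM in silent replicate 2, next highest 0.0711 RPM. Grp was at 15.4 RPM in place replicate 3, Ndnf at 12.6 RPM and Gpc3 at 0.0505 RPM, a single read, both in silent replicate 2, and each had no reads in the other libraries of its group.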

How the results depend on the processing

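No marker and no related gene had an adjusted p under 0.05 in any of 20 alternatives. Over all genes the count called was 0 in limma and moved to 4 with voom and, leaving out 1 library at a time, from 0 to 1 (1 without place replicate 1); none was a marker. The log2 fold changed sign for Calb1 with the number of genes detected as a covariate (-0.0696) and without silent replicate 1 (-0.34), for Ndst4 with that covariate (-0.0208) and without silent 1, silent 4 and place 3 (-0.0825), for Sox5 with quantile normalization (-0.44), without those 3 libraries (-3.07) and without silent replicate 4 (-0.67), and for Astn2 with quantile normalization (-0.60). The difference in the Calb1 to Ndst4 log2 ratio changed sign without those 3 libraries (0.13) and ran from -1.09 to -0.24 with single libraries left out. The causes were not tested. Cux2 kept its sign in 19 alternatives. Dcn did so too, but its sign was all but fixed beforehand. It had no reads in any silent library and passed the filter only through place libraries. With single libraries left out the fold ran from -0.34 to 1.002 for Calb1, from -0.67 to 3.07 for Sox5, from 0.23 to 2.10 for Ndst4, from 1.09 to 3.68 for Astn2 and from -4.01 to -1.83 for Cux2. The median over all genes, 0.20, became 0.01 after quantile normalization. No paired analysis was possible because the labels give no replicate number that the groups share.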
